A study of Homo sapiens with 18 samples.

Results

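The heat shock factors HSF1, HSF2 and HSF4 and the HSF1 regulators HSBP1 and IER5 were followed by RNAseq in SW620 cells, a line from human colon cancer, after silencing of the mitochondrial protease Lonp1 and heat. These 5 genes were set by name, with no threshold on a measured value but with earlier results of these data known, out of 26485 gene symbols in the counts table. All 5 had a level above 1 count per 1000000 counts (CPM) in at least 3 libraries and were therefore among the 12832 genes tested. HSF1 is the transcription factor that drives the chaperone response to heat. In unstressed cells HSF1 is held inactive by chaperones, and after heat it forms trimers, is modified at many residues and binds heat shock elements, which are repeats of the letters GAA and their complement TTC. HSF2 forms mixed trimers with HSF1 and tunes its output, and HSF4 is best known from the lens. HSBP1 binds the trimerisation domain of HSF1 and dampens its activity. IER5 is the product of an immediate early gene that is itself induced through HSF1, and it brings the phosphatase PP2A to HSF1.

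Cells received scramble siRNA or siRNA against Lonp1 (siLonp1). In either arm the Ctrl group stayed at 37 °C, the HS group was heated to 42 °C during 1 h, and the HS+REC group had the same heat with 1 h of recovery at 37 °C after it. Each of the 6 groups had 3 libraries, all from 1 cell line. The methods of the study call the replicates independent and biological, and the labels number them without naming cultures. RNA levels were measured, so protein, phosphorylation and DNA binding of HSF1 were not. Library totals ran from 30815860 counts in replicate 3 of HS scramble to 47279297. LONP1 lay between 11.5 and 28.9 CPM in the siLonp1 libraries and between 197 and 233 CPM in the scramble libraries. LONP1 stood at 9.26% of its scramble level in Ctrl, at 5.48% in HS and at 12.4% in HS+REC, and both interactions passed (log2 -0.76, adjusted p = 4.68e-04 for HS, and 0.43, adjusted p = 0.0321 for HS+REC, edgeR). With a library left out the HS interaction held in 12 of 12 fits and that of HS+REC in 3 of 12, namely without replicate 2 of Ctrl siLonp1, replicate 3 of HS+REC scramble or replicate 2 of HS+REC siLonp1. The HS+REC call was also lost with a replicate block and in a fit of only the groups compared. The part of the depth of silencing in the siLonp1 differences and interactions of other genes was not tested. Of 10 markers of colon epithelium, KRT8 had the highest mean at 5326 CPM, and CDX1 was at 0 counts. Of 9 markers of blood, vessel, fibroblast and liver cells, COL1A1 had the highest mean at 19.3 CPM, and COL3A1 was at 0 counts. COL1A1 rose by 0.89 and 0.76 in HS and by 1.71 and 1.78 in HS+REC, and the macrophage marker CD68 rose with siLonp1 by 0.35 to 0.53, while PTPRC had at most 3 and DCN at most 7 reads in a library. The summed level of the 9 markers was 19.9 to 22.7 CPM in Ctrl, 26.7 to 33.1 CPM after HS and 42.1 to 43.3 CPM after HS+REC in scramble, and 24.2 to 26.9, 30.8 to 36.6 and 47.2 to 51.7 CPM with siLonp1. Of 9 tested colon markers, 3 rose and 2 fell with siLonp1 in Ctrl, 6 and 2 in HS, and 2 and 3 in HS+REC (adjusted p at most 0.05, edgeR). Of all genes 26.3%, 28.1% and 26.8% rose and 22.9%, 26.7% and 27.3% fell. The 2 that fell in HS were CDH17 at -3.41 and CDX2 at -1.38, and the largest rise there was 1.07. The summed level of the 10 was 9263 to 9679 CPM in Ctrl, 9839.5 to 10254 CPM after HS and 8762 to 10156 CPM after HS+REC in scramble. With siLonp1 it was 10309 to 11002, 11558 to 12124 and 8753 to 10856 CPM. The part of these shifts in the members' values was not tested.

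The promoter of IER5 was examined for heat shock elements because IER5 was the member with the largest heat response. Windows from 250 bases before to 50 bases after the RefSeq (GRCh38.p14) start were searched for 4 of the members, and that of HSF1 was not searched. The motifs GAANNTTC and TTCNNGAA, each its own reverse complement, stand for a pair of adjacent units, and a run of 3 is the first of them extended by NNGAA or the second by NNTTC. Both strands were searched, and a match to a run of 3 also contains both of the shorter motifs. The IER5 window held 1 match, to GAANNTTC, with its first base 226 bases before the start, and the windows of HSF2, HSF4 and HSBP1 held none of these letters. Either of the shorter motifs was present in 13.5% of 35116 windows of the same length and a run of 3 in 0.49%. Among 21 genes with a window out of 24 HSF1 target genes, 16 held a shorter motif and 8 a run of 3 in at least 1 of their windows. Counted by window, as for the background, these were 17 and 8 of 33 windows (51.5% and 24.2%). The stretch before the IER5 start (chr1:181088450-181088699, plus strand) is shown beside that of the target HSPA6 (chr1:161524290-161524539, plus strand), which holds a run of 3, with matches in capitals.
IER5: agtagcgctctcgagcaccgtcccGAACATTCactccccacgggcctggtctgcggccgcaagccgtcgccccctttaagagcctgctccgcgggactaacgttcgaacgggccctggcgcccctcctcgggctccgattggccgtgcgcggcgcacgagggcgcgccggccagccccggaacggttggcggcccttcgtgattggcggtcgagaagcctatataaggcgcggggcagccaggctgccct
HSPA6: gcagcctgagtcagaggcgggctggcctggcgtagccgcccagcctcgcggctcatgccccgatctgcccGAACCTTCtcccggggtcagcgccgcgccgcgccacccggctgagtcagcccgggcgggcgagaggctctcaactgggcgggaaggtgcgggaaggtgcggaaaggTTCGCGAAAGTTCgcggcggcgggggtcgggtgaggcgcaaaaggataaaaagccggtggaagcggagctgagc
In IER5 the match is a single pair of units far from the start, whereas in HSPA6 overlapping matches begin 74 and 69 bases before the start and a separate one 180 bases before it. A match in letters does not show that the site was bound in these cells.

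The level of each gene in the cell was compared per kb of its canonical GENCODE transcript, of 2134 bp for HSF1, 2596 bp for HSF2, 1702 bp for HSF4 and 4201 bp for IER5. In Ctrl scramble the level was 41.5 ± 1.58 CPM per kb for HSF1 (SD, n = 3), 14.4 ± 0.212 for HSF2, 11.5 ± 0.612 for IER5 and 1.49 ± 0.212 for HSF4. HSF1 was thus the most abundant of the 3 factors by this measure and HSF4 the least abundant. In HS scramble the level of IER5 was 59.0 ± 4.21 CPM per kb, above HSF1 at 45.0 ± 2.01, and in HS+REC scramble it was 31.5 ± 5.24 against 44.8 ± 4.24. HSBP1 was left out of this order, since its 4 annotated coding transcripts run from 1020 to 8649 bp and the form counted in these cells is not known. The order rests on the canonical forms, since annotated coding transcripts run from 561 bp for HSF1, 642 bp for HSF2 and 404 bp for HSF4, and a shorter form gives a higher level per kb.

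**Figure D1:**
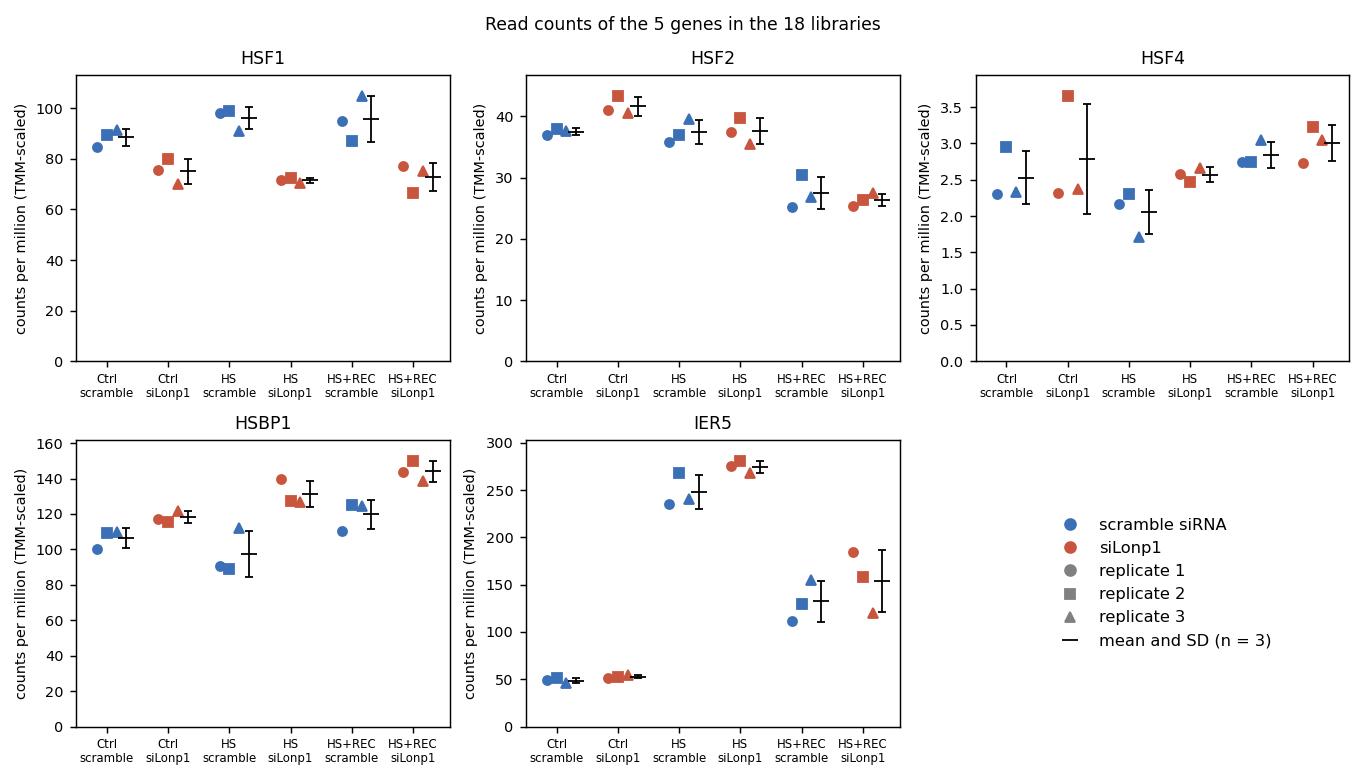
Level of each gene in each of the 18 libraries, in CPM scaled by TMM factors, by group (Ctrl at 37 °C, HS at 42 °C, HS+REC after recovery), with scramble in blue and siLonp1 in red, markers for replicates and bars for mean and SD (n = 3). IER5 stands highest in HS, HSF2 lowest in HS+REC, HSF1 lower in siLonp1 and HSBP1 higher in siLonp1 libraries.

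HSF1 (chr8:144291604-144314720, 13 exons) was lower after Lonp1 silencing in each of the 3 conditions and did not pass the test for heat in either arm, where passing means an adjusted p of at most 0.05. In Ctrl its levels in replicates 1, 2 and 3 were 84.8, 89.4 and 91.5 CPM with scramble and 75.5, 79.8 and 70.1 CPM with siLonp1. In HS they were 98.0, 99.1 and 91.2 CPM with scramble and 71.7, 72.4 and 70.6 CPM with siLonp1. In HS+REC they were 95.1, 86.9 and 105 CPM with scramble and 77.0, 66.5 and 75.0 CPM with siLonp1. No siLonp1 library reached the lowest scramble library of its condition, and the 3 scramble groups overlapped one another, as did the 3 siLonp1 groups. The log2 fold change by siLonp1 was -0.24 in Ctrl (standard error 0.070, adjusted p = 0.00754 by the quasi-likelihood test of edgeR, with Benjamini-Hochberg correction over 12832 genes), -0.43 in HS (adjusted p = 2.44e-05) and -0.39 in HS+REC (adjusted p = 6.08e-05). HSF1 RNA thus stood at 84.9%, 74.4% and 76.2% of the scramble level. Without replicate 3 of Ctrl siLonp1 the change in Ctrl no longer passed (log2 fold change -0.19, adjusted p = 0.0527). The HS change was 0.12 in scramble (95% interval -0.026 to 0.26) and -0.071 in siLonp1 (-0.22 to 0.075), neither passed, and with each library left out the values ran from 0.089 to 0.18 and from -0.12 to -0.025. The last 137 bp of the HSF1 locus overlap the opposite-strand gene DGAT1, an enzyme of triglyceride synthesis, whose siLonp1 changes were -0.34, -0.24 and -0.37. An unnamed long noncoding RNA of the opposite strand, not analysed here, overlaps the HSF1 locus by 131 bp. The kit was stranded, but the strand setting of the counting is not given in the sources used here, and the part of shared reads in the HSF1 values was not tested.

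HSF2 (chr6:122399551-122433119, 13 exons) did not pass the test at the end of heat and was lower 1 h later in both arms. Its levels in Ctrl were 36.9, 38.0 and 37.6 CPM with scramble and 41.0, 43.4 and 40.5 CPM with siLonp1. In HS they were 35.8, 37.0 and 39.6 CPM with scramble and 37.5, 39.8 and 35.5 CPM with siLonp1. In HS+REC they were 25.3, 30.4 and 26.8 CPM with scramble and 25.3, 26.3 and 27.4 CPM with siLonp1. All 6 HS+REC libraries lay under all 12 others. Against Ctrl the HS+REC change was -0.45 in scramble (standard error 0.068, adjusted p = 9.97e-06, edgeR) and -0.66 in siLonp1 (standard error 0.069, adjusted p = 2.77e-08), which left 73.2% and 63.3% of the Ctrl level. Against HS it was -0.45 (adjusted p = 2.23e-05) and -0.51 (adjusted p = 2.99e-06). At the end of heat the change from Ctrl was -0.0027 in scramble (95% interval -0.14 to 0.14) and -0.15 in siLonp1 (-0.29 to -0.0066, adjusted p = 0.0863), and the latter passed when libraries were scaled by their totals alone (-0.20, adjusted p = 0.0227). Ctrl siLonp1 was the highest group, with each library above the 3 Ctrl scramble libraries, but this difference of 0.15 missed the limit (adjusted p = 0.0699). The changes by siLonp1 in HS and HS+REC were 0.0058 and -0.058.

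HSF4 (chr16:67163761-67169941) had the lowest level of the 5, with 54 to 148 reads in a library. Its levels in Ctrl were 2.31, 2.95 and 2.33 CPM with scramble and 2.32, 3.66 and 2.38 CPM with siLonp1. In HS they were 2.16, 2.30 and 1.71 CPM with scramble and 2.57, 2.47 and 2.67 CPM with siLonp1. In HS+REC they were 2.74, 2.74 and 3.05 CPM with scramble and 2.74, 3.23 and 3.04 CPM with siLonp1. HS scramble was the lowest group and overlapped none of the others. HS siLonp1 lay below both HS+REC groups, and the other pairs of groups overlapped. The comparison of HS+REC with HS in scramble, at 0.45 (95% interval 0.11 to 0.79, adjusted p = 0.0433, edgeR), was the single contrast in which HSF4 passed. Leaving out replicate 1 or 3 of HS scramble or any 1 of the 3 HS+REC scramble libraries brought the adjusted p above the limit, at most to 0.162, and scaling by library totals alone did so too (adjusted p = 0.0814). The siLonp1 changes were 0.13 in Ctrl (-0.20 to 0.47), 0.31 in HS (-0.044 to 0.66) and 0.075 in HS+REC (-0.25 to 0.40), so these intervals leave room for changes of either sign. HSF4 shares 810 bp with FBXL8, a gene of the same strand, whose siLonp1 changes were -0.78, -0.62 and -0.44. From HS to HS+REC in scramble FBXL8 changed by -0.52 (adjusted p = 0.0935, edgeR). HSF4 also overlaps, by 2055 bp, an unnamed protein-coding gene of the same strand that was not analysed here. The part of shared reads in the HSF4 values was not tested.

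HSBP1 (chr16:83807978-83819737) was higher after Lonp1 silencing in the heated groups. Of the 11760 bp of the locus, 11637 bp overlap the span of an unnamed long noncoding RNA of the same strand that was not analysed here. The overlap of their exons and the part of shared reads in the HSBP1 values were not tested. In Ctrl its levels were 100.1, 109 and 109.9 CPM with scramble and 117, 115 and 122 CPM with siLonp1. In HS they were 90.5, 89.2 and 112 CPM with scramble and 139.6, 128 and 127 CPM with siLonp1. In HS+REC they were 111, 125 and 124 CPM with scramble and 144, 149.9 and 139 CPM with siLonp1. In each condition every siLonp1 library was above every scramble library. The siLonp1 change was 0.43 in HS (standard error 0.075, adjusted p = 4.43e-05, edgeR) and 0.26 in HS+REC (standard error 0.075, adjusted p = 0.00494), whereas that in Ctrl, 0.15, missed the limit (adjusted p = 0.103). From HS to HS+REC HSBP1 rose by 0.30 in scramble (adjusted p = 0.00359), and against Ctrl it rose by 0.29 in siLonp1 after recovery (adjusted p = 0.00274). The HS change itself was -0.13 in scramble and 0.15 in siLonp1, and neither passed (adjusted p = 0.183 and 0.109). The HS+REC change in scramble was 0.17 (adjusted p = 0.0701) and passed without replicate 1 of HS+REC scramble (0.23). Replicate 3 of HS scramble, the shallowest library, stood at 112 CPM, apart from the other libraries of its group at 90.5 and 89.2 CPM. Without it the HS change in scramble passed at -0.22 (adjusted p = 0.0137), and the siLonp1 change in HS was 0.54.

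IER5 (chr1:181088700-181092900, 1 exon) was the member that heat moved most, about 5-fold at the end of HS in both arms. In Ctrl its levels were 48.8, 50.9 and 45.7 CPM with scramble and 51.9, 51.9 and 54.4 CPM with siLonp1. In HS they were 235, 268 and 241 CPM with scramble and 275, 281 and 268 CPM with siLonp1. In HS+REC they were 112, 129.6 and 155 CPM with scramble and 185, 158 and 119.8 CPM with siLonp1. The 3 conditions did not overlap in either arm, with HS highest and Ctrl lowest. The HS change was 2.36 in scramble (standard error 0.11, adjusted p = 1.14e-13, edgeR), a fold of 5.12, and 2.38 in siLonp1 (standard error 0.11, adjusted p = 8.13e-14), a fold of 5.21. It ranked 71 from the top in scramble and 88 in siLonp1 among 12832 genes. After recovery IER5 was still 2.73-fold over Ctrl in scramble (adjusted p = 3.53e-10) and 2.92-fold in siLonp1 (adjusted p = 8.23e-11), with 42.0% and 45.7% of the rise in mean CPM left. From HS to HS+REC it fell by 0.91 and 0.83 on the log2 scale (adjusted p = 1.04e-06 and 2.33e-06). HS+REC was also the condition in which replicates differed most, with a coefficient of variation of 16.7% in scramble and 21.2% in siLonp1, against 7.13% and 2.35% in HS.

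The effect of siLonp1 on IER5 was positive in each condition and passed in none, at 0.12 in Ctrl (95% interval -0.12 to 0.36), 0.15 in HS (-0.079 to 0.37) and 0.22 in HS+REC (-0.0074 to 0.45). In HS+REC the libraries of the arms interleaved, and the change there passed when no filter on low counts was used (0.22, adjusted p = 0.0154). Without replicate 3 of HS+REC scramble that change passed at 0.35 (adjusted p = 0.00949), and without replicate 3 of HS+REC siLonp1 at 0.37 (adjusted p = 0.00278). Without replicate 1 of HS+REC siLonp1 it was 0.062 (adjusted p = 0.656).

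**Figure D2:**
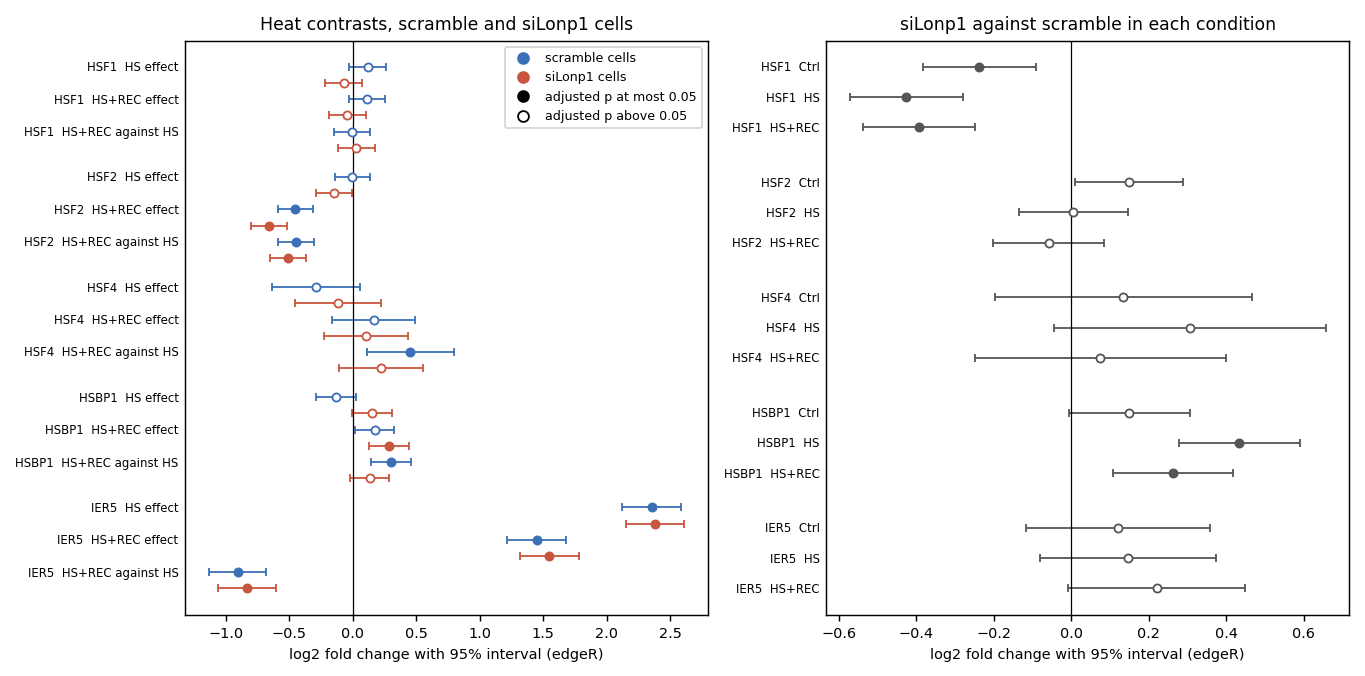
Log2 fold change with its 95% interval (edgeR) for each gene, on the left for heat and recovery in scramble (blue) and siLonp1 (red) cells and on the right for siLonp1 against scramble in each condition, with filled points at an adjusted p of at most 0.05. On the left IER5 stands away from 0 in HS and HS+REC and HSF2 in HS+REC, in both arms, and on the right HSF1 lies below 0 and HSBP1 above it.

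Counted over the 5 genes at an adjusted p of at most 0.05, IER5 alone rose in HS, in scramble, where 18.6% of all genes tested rose, and in siLonp1, where 20.2% rose. None of the 5 fell in HS, against 17.3% and 22.1% of all genes. In HS+REC IER5 rose and HSF2 fell in scramble, where 21.8% of genes rose and 20.5% fell. IER5 and HSBP1 rose and HSF2 fell in siLonp1, where 24.6% rose and 26.6% fell. From HS to HS+REC, HSF4 and HSBP1 rose and HSF2 and IER5 fell in scramble, against 14.2% and 12.7% of all genes, and HSF2 and IER5 fell and none rose in siLonp1, against 15.6% falling and 16.3% rising. With siLonp1 HSF1 fell in Ctrl, where 22.9% of genes fell and 26.3% rose. HSF1 fell and HSBP1 rose in HS, where 26.7% fell and 28.1% rose, and the same 2 members did so in HS+REC, where 27.3% fell and 26.8% rose. At the study's call, which also asks for a fold above 2, IER5 was the 1 member raised in the 4 comparisons of heat or recovery with Ctrl, against 2.94% and 3.42% of genes in HS and 3.78% and 4.51% in HS+REC, for scramble and siLonp1. The HS and HS+REC comparisons of an arm share their Ctrl libraries, and the siLonp1 and heat comparisons share libraries too.

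None of the 5 genes passed the interaction test, which asks whether the heat response differs between the arms and which 1.87% of all genes passed for HS and 1.58% for HS+REC. Those shares stand for 240 and 203 genes, which became 98 to 526 and 96 to 304 with 1 library left out, lowest without replicate 1 of HS scramble and of HS+REC scramble and highest without replicate 3 of those groups. The largest for HS was that of HSBP1, at 0.28 (95% interval 0.064 to 0.50, unadjusted p = 0.0138 and adjusted p = 0.193, edgeR). Without replicate 3 of HS scramble it was 0.39 and passed (adjusted p = 0.0189). For HSF1 the HS interaction was -0.19 (-0.39 to 0.016). For HSF2 the HS+REC interaction was -0.21 (-0.41 to -0.0076, adjusted p = 0.345). For IER5 the values were 0.025 (-0.30 to 0.35) and 0.099 (-0.23 to 0.43), so differences of that size between the arms could not be told from 0 with these libraries.

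The ratio of 2 genes within a library does not depend on how libraries are scaled, and gene length cancels between groups. These ratios were chosen after the levels had been seen and are given without a test. For HSBP1 over HSF1 the ratio of counts in Ctrl was 1.18, 1.22 and 1.20 with scramble and 1.55, 1.44 and 1.74 with siLonp1. In HS it was 0.924, 0.900 and 1.23 with scramble and 1.95, 1.76 and 1.80 with siLonp1. In HS+REC it was 1.16, 1.44 and 1.18 with scramble and 1.86, 2.25 and 1.85 with siLonp1. All 9 siLonp1 libraries were above all 9 scramble libraries, with group means between 1.58 ± 0.148 (SD, n = 3, Ctrl) and 1.99 ± 0.231 (HS+REC) for siLonp1 and between 1.02 ± 0.185 (HS) and 1.26 ± 0.153 (HS+REC) for scramble. In each condition HSF1 was lower and HSBP1 higher in every siLonp1 library, so within a condition the arms had to part in this ratio. How many other gene pairs part the arms likewise was not counted. IER5 over HSF1 was 0.548 ± 0.0416 in Ctrl scramble and 0.704 ± 0.0650 in Ctrl siLonp1. In HS it was 2.58 ± 0.161 with scramble and 3.84 ± 0.0407 with siLonp1, and in HS+REC 1.38 ± 0.180 and 2.12 ± 0.456. The arms did not overlap in this ratio in any condition. The siLonp1 change of IER5 itself passed in none, and the lower HSF1 enters this ratio too. HSF2 over HSF1 was 0.424 ± 0.0119 in Ctrl scramble and 0.555 ± 0.0197 in Ctrl siLonp1, and in HS+REC 0.290 ± 0.0518 and 0.363 ± 0.0336, where the arms overlapped.

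**Figure D3:**
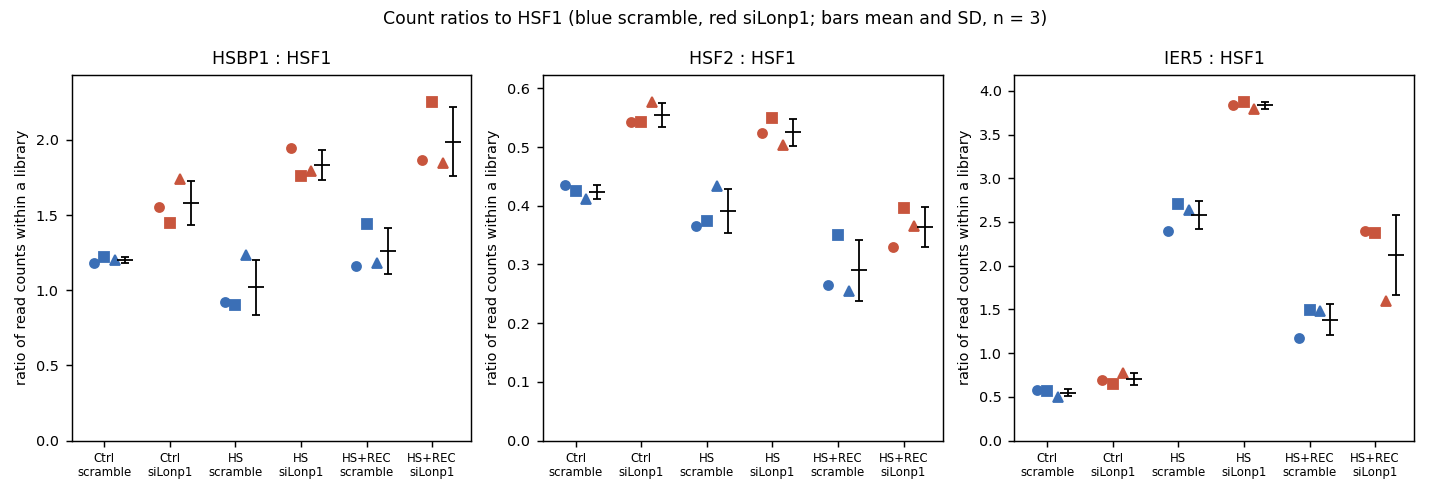
Ratio of read counts of HSBP1, HSF2 and IER5 to those of HSF1 within each library, by group, with scramble in blue, siLonp1 in red and bars for mean and SD (n = 3). For HSBP1 every siLonp1 library lies above every scramble library, and for IER5 the ratio rises in HS in both arms.

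Other genes of the HSF and IER families were read from lists fixed by name. HSF5 had 1 read in all 18 libraries together, HSFX1 and HSFX2 had none, and HSFX3 and HSFX4 were not analysed here. HSF2BP, which binds HSF2, was at 32 to 64 reads and rose by 0.57 in HS in scramble (adjusted p = 0.0355, edgeR) with 0.037 in siLonp1. Its rise was lost in 5 of 6 fits that left out 1 Ctrl or HS scramble library, all but that without replicate 3 of Ctrl, and in DESeq2. HSBP1L1, a relative of HSBP1, rose by 0.50 in HS+REC in siLonp1 (adjusted p = 0.00749) and passed in no other contrast. Without replicate 1 of either siLonp1 group of that contrast it no longer passed (adjusted p at most 0.0537). IER2, another immediate early gene, rose in HS by 1.74 in scramble and 1.53 in siLonp1 and fell from HS to HS+REC by 1.29 and 1.10, the order of levels seen for IER5. IER2 also rose with siLonp1 by 0.46 in Ctrl and 0.45 in HS+REC (adjusted p = 0.00258 and 0.00271), while its 0.25 in HS did not pass. IER5L, the closest relative of IER5, had 0.17 and -0.38 in HS, which did not pass, and fell in HS+REC by 0.77 in scramble and 0.63 in siLonp1. With siLonp1 IER5L rose in HS+REC by 0.43 (adjusted p = 0.0336), a call that held in 2 of 6 fits with a library left out, those without replicate 3 of HS+REC scramble or replicate 2 of HS+REC siLonp1, and that was lost with totals alone, with only the groups compared and in DESeq2.

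Of 8 tested subunits of PP2A and PP5, the phosphatases of which IER5 brings PP2A to HSF1, 2 rose and 2 fell in HS in scramble (median log2 fold change -0.029, against -0.014 for all genes tested) and 2 rose and 2 fell in siLonp1, next to shares of all genes of 18.6% and 17.3% in scramble and 20.2% and 22.1% in siLonp1. The 2 that fell in siLonp1 became 1 without replicate 1 of Ctrl siLonp1 or replicate 2 of HS siLonp1. In HS+REC 3 rose and 2 fell in scramble, and 3 rose and 5 fell in siLonp1 (medians -0.11 and -0.26), against 21.8% and 20.5%, and 24.6% and 26.6%, of all genes. With totals alone 5 fell in HS+REC in scramble. PPP2CB, a catalytic subunit, rose in HS by 0.37 in scramble and 0.67 in siLonp1 and stood at 0.88 and 1.11 over Ctrl in HS+REC. The regulatory B subunit PPP2R2A rose by 0.34 and 0.42 in HS and by 0.54 and 0.61 in HS+REC. The scaffold PPP2R1B fell by 0.33 and 0.45 in HS, and PPP2R2C, another B subunit, fell in HS+REC by 0.86 and 0.52. With siLonp1 2 of the 8 rose and none fell in Ctrl, 3 rose and 1 fell in HS, and 4 rose and 1 fell in HS+REC, where 26.3%, 28.1% and 26.8% of all genes rose and 22.9%, 26.7% and 27.3% fell. The subunit that fell was PPP2R1B, by 0.22 in HS and 0.24 in HS+REC. PPP2CB rose with siLonp1 by 0.43 in Ctrl, by 0.73 in HS and by 0.66 in HS+REC, and the other catalytic subunit, PPP2CA, by 0.31, 0.36 and 0.36. The scaffold PPP2R1A changed by -0.13 in HS in scramble, which did not pass, and fell by 0.19 in siLonp1, while PPP2R2D at -0.017 and -0.042 and PPP5C at -0.041 and -0.13 did not pass in HS.

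Among 13 chaperones and cofactors that bind HSF1 and in part hold it inactive, 8 rose in HS in scramble and 8 in siLonp1 (medians 0.64 and 0.87), and 10 and 10 rose in HS+REC, where 18.6%, 20.2%, 21.8% and 24.6% of all genes rose. HSPA1A and HSPA1B, near-identical copies of the inducible HSP70 whose reads cannot be told apart with certainty, rose by 7.11 and 6.70 in scramble, and the HSP70 cofactor DNAJB1 by 4.47. HSP90AA1, the inducible HSP90, rose by 1.36 in scramble and 1.66 in siLonp1. TCP1, a subunit of the TRiC chaperonin, rose by 0.52 and 0.66 in HS and by 1.20 and 1.51 in HS+REC. With siLonp1 1 of the 13 rose in Ctrl, while 6 did in HS and 4 in HS+REC, and none, 1 and 2 fell, where 26.3%, 28.1% and 26.8% of all genes rose and 22.9%, 26.7% and 27.3% fell. The count of 6 in HS became 3 without replicate 2 of HS scramble or replicate 1 or 3 of HS siLonp1, and 2 with libraries scaled by their totals alone. The count of 4 in HS+REC became 1 without replicate 1 of HS+REC scramble and 7 without replicate 3 of HS+REC siLonp1. The 2 that fell in HS+REC, STUB1 and VCP, no longer passed without replicate 3 of HS+REC scramble or with only the groups compared. Of the 4 that rose, PTGES3 and TCP1 were also lost with only the groups compared.

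Of 26 enzymes that modify HSF1, 6 rose and 6 fell in HS in scramble, with a median of -0.021 (shares of all genes 18.6% and 17.3%). In HS with siLonp1 6 rose and 8 fell, against 20.2% and 22.1% of all genes. In HS+REC 5 rose and 6 fell in scramble and 4 rose and 9 fell in siLonp1, against 21.8% and 20.5%, and 24.6% and 26.6%, of all genes. The 6 that fell in HS in scramble became 1 without replicate 1 of Ctrl, and 3 without replicate 3 of Ctrl or replicate 1 or 3 of HS. The 6 that rose in HS in siLonp1 became 3 without replicate 2 of HS siLonp1, and the 5 that rose in HS+REC in scramble became 2 or 3 without replicate 2 or 3 of Ctrl scramble or replicate 2 of HS+REC scramble. Of these 5, CSNK2A1, MAP2K1 and SIRT1 no longer passed with totals alone. In these comparisons none passed the study's call for heat. With siLonp1 12 rose and 3 fell in Ctrl (median 0.18), 11 and 4 in HS (median 0.077) and 11 and 4 in HS+REC (median 0.16), where the medians of all genes were 0.0092, 0.0011 and -0.0028 and the shares that rose 26.3%, 28.1% and 26.8%. The 11 that rose in HS became 7 without replicate 3 of HS scramble and with totals alone, where 7 fell in HS and 7 in HS+REC. The 3 that fell in Ctrl became 1 when any 1 Ctrl library was left out other than replicate 1 of siLonp1. Of the 4 that fell in HS+REC, FBXW7 and SIRT1 no longer passed without replicate 2 of HS+REC scramble. MAPK3, the kinase ERK1 that phosphorylates HSF1 on a serine linked to repression, rose by 0.88 in Ctrl, by 1.03 in HS and by 1.06 in HS+REC, with folds above 2 in the last pair. Among 10 tested partners of HSF1 on chromatin, 4, 6 and 6 fell in the Ctrl, HS and HS+REC comparisons of siLonp1 with scramble (medians -0.11, -0.22 and -0.30), and 1, 1 and 2 rose. Of all genes 22.9%, 26.7% and 27.3% fell in these comparisons, and the 4 in Ctrl became 7 with totals alone. ZC3HAV1, an antiviral zinc finger protein on this list, rose in HS+REC by 0.88 in scramble and 1.05 in siLonp1, the 1 partner past the study's call in any contrast.

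The 24 HSF1 target genes, most of them chaperones, were set beside the 5 members as the readout of HSF1. They share 7 genes with the 13 chaperones above (DNAJB1, FKBP4, HSP90AA1, HSP90AB1, HSPA1A, HSPA1B and HSPA8), so the counts of the lists are not independent. In HS 23 of 24 rose in scramble (median log2 fold change 1.85) and 24 in siLonp1 (2.02), and in HS+REC all 24 rose in both arms (2.85 and 2.98). Of all genes 18.6% and 20.2% rose in HS and 21.8% and 24.6% in HS+REC, with medians of -0.014, 0.00039, -0.0028 and -0.0033. From HS to HS+REC 20 rose further and 1 fell in scramble, and 19 rose and 2 fell in siLonp1, against 14.2% and 12.7%, and 16.3% and 15.6%, of all genes. IER5 fell in this interval in both arms, as did HSPA6, an HSP70 absent from most unstressed cells, by 1.26 and 1.16. HSPA6 has a close copy, HSPA7, so its counts are uncertain to that extent. With siLonp1 3 targets rose and 2 fell in Ctrl (median 0.062), 15 rose and none fell in HS (0.22), and 13 rose and none fell in HS+REC (0.24). The targets that fell in Ctrl were AHSA1 (-0.23, adjusted p = 0.0119) and HSPA4L (-0.26, adjusted p = 0.0309), of which AHSA1 no longer passed without replicate 1 of Ctrl siLonp1, and HSPA4L without replicate 1 or 3 of Ctrl scramble or replicate 1 or 2 of Ctrl siLonp1. The shares of all genes were 26.3%, 28.1% and 26.8% for a rise and 22.9%, 26.7% and 27.3% for a fall. The count of 3 in Ctrl became 8 without the filter on low counts, and that of 2 became 5 with libraries scaled by their totals alone, and 0 or 1 without replicate 1 or 3 of Ctrl scramble or replicate 1 or 2 of Ctrl siLonp1. The count of 15 in HS became 9 with totals alone, and that of 13 in HS+REC became 20 without replicate 3 of HS+REC siLonp1. Of the 15 in HS, DNAJB1, FKBP4, HSP90AB1 and SERPINH1 each passed in 1 of 6 fits with a library left out, and STIP1 in 2 of 6. Without replicate 1 of HS+REC siLonp1, 2 targets fell in HS+REC. In the same libraries HSF1 RNA changed by -0.43 in HS and -0.39 in HS+REC on the log2 scale, and HSBP1 RNA was higher by 0.43 and 0.26. HSPB8 and CRYAB, small heat shock proteins on this list, had at most 3 reads in any Ctrl library, so their fold changes are only rough.

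**Figure D4:**
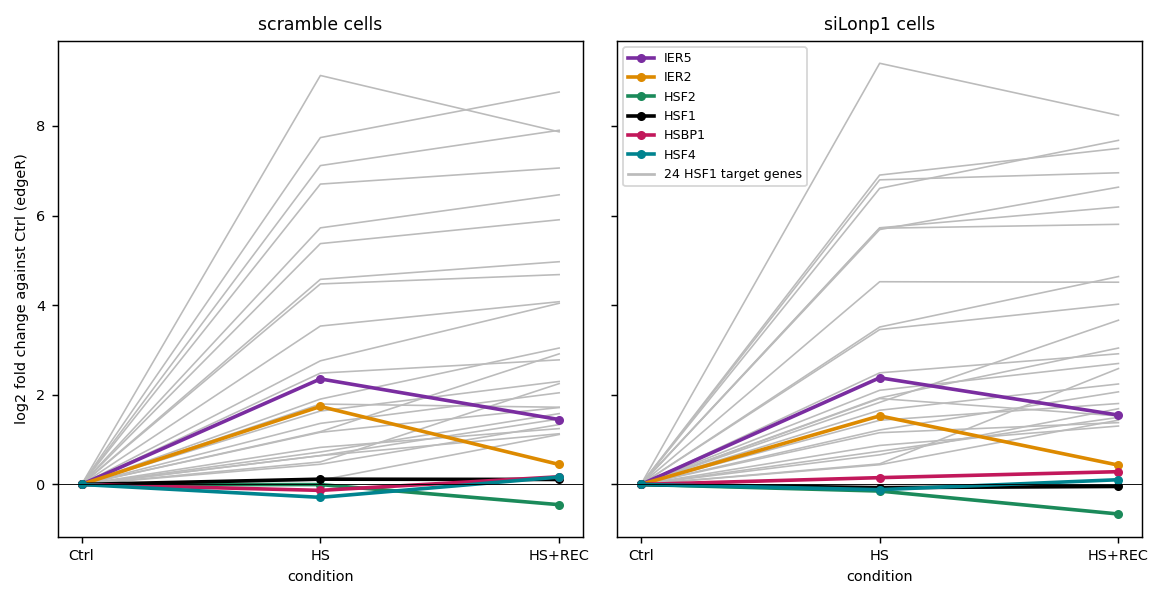
Log2 fold change against Ctrl (edgeR) in HS and HS+REC for the 5 genes and IER2 (coloured) and 24 HSF1 target genes (grey), in scramble cells on the left and siLonp1 cells on the right. IER5 and IER2 peak in HS and decline in HS+REC, most target genes climb further, and HSF1 stays near 0.

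The genes whose level was most like that of each member were found by Pearson correlation of log2 CPM over the 18 libraries, which share conditions and silencing, and are given as a description. For IER5 they were ZNF436 (r = 0.988), ZNF79 (0.986), DUSP1 (0.984), ZNF408 (0.983) and CLK1 (0.983). DUSP1, a stress-induced phosphatase of MAP kinases, changed by 3.42 in HS and 1.93 in HS+REC in scramble, and CLK1, a kinase of splicing factors, by 2.52 and 1.87. For HSF1 they were RHOT2 (0.983), ARRB2 (0.978), ACD (0.970), TKT (0.965) and TRMT2A (0.960), and RHOT2, a mitochondrial GTPase, fell with siLonp1 in HS by 0.58. For HSF2 they were TMEM18 (0.954), HJURP (0.949), CCNJ (0.948), RIPK1 (0.943) and CASD1 (0.938), and HJURP, a centromere chaperone, fell in HS+REC by 0.71 in scramble and 0.74 in siLonp1. For HSBP1 they were SUPT4H1 (0.962), TMCO1 (0.962), NDUFB3 (0.960), GHITM (0.959) and MMADHC (0.959), among which SUPT4H1, an elongation factor subunit, rose with siLonp1 in HS by 0.46. For HSF4 the highest were lower, at 0.820 for CCDC64, 0.775 for GOLGA4, 0.758 for RALY-AS1, 0.750 for PCF11 and 0.734 for TMEM39A. With Spearman's rho the 5 most like genes shared 3 with these for HSF1, 1 each for HSF4, HSBP1 and IER5 and none for HSF2.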

How the data were processed

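Stranded mRNA libraries of SW620 cells were made by the authors, and per the labels and the submitters' processing notes reads were aligned to hg38 with STAR 2.7.3a and counted with featureCounts, with R 3.6.3 and edgeR also named. The deposited values are raw counts per gene symbol, with no normalization. Strand setting, treatment of multi-mapping reads and annotation release are not given in the sources used here. Each of the 18 columns was matched to its sample by name.

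The filter asked for CPM over 1 in 3 or more libraries and left 12832 of 26485 genes, all 5 members included. TMM factors (0.934 to 1.06) and 1 model with a mean for each of 6 groups were fitted with edgeR 4.0.16 in R 4.3.3. The quasi-likelihood test was used with Benjamini-Hochberg adjustment over the genes tested. Intervals cover 95%, fold changes carry a prior count of 0.125 and log2 CPM one of 2, and standard errors came from the fitted weights. Genes with no edgeR call at an adjusted p of 0.05 are said not to pass. Totals of 30815860 to 47279297 counts set the precision, so HSF4, at 54 to 148 reads, is the least precise of the 5. On simulated counts for the HS effect in scramble (12832 genes), 79.0% of 100 genes changed by 0.5 on the log2 scale and 97.0% of 100 changed by 1 were recovered. There were 15 false calls, 7.85% of all calls. No other gene was changed in the simulation, whereas 4615 genes passed in the measured contrast, so recovery in the data may differ.

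The members, set by name, and the gene lists were chosen with earlier results of these data known. Named are the 5 members, LONP1, tested HSF, IER and phosphatase genes, at most 4 genes per list and contrast past an adjusted p of 0.05 and a fold of 2, the markers of highest and lowest mean, and the 5 genes most like each member. The genes overlapping a member, other genes given as examples of a list (HSPA6 for its promoter and decline, TCP1, HSP90AA1, HSPB8, CRYAB, AHSA1, HSPA4L, CD68, PTPRC, DCN, CDH17 and CDX2) and those in the closing section were named after their values were seen. So were genes named for a call that was lost (FKBP4, HSP90AB1, SERPINH1, STIP1, STUB1, VCP, PTGES3, CSNK2A1, MAP2K1, SIRT1 and FBXW7). Alternatives were RLE factors, library size only, no filter, CPM above 1 in all libraries, DESeq2 1.42.0, the likelihood ratio test, only the groups compared, a replicate block, an adjusted p of 0.01 and each library left out. Coordinates and promoter windows are from RefSeq (GRCh38.p14), and lengths, exons and overlaps from GENCODE v44.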

Additional observations from a re-analysis of the deposited data

Results flagged for a closer look

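The heat responses of 6 of 24 HSF1 targets and 1 of 26 enzymes that modify HSF1 differed between siLonp1 and scramble cells by the interaction test (edgeR quasi-likelihood, Benjamini-Hochberg over 12832 genes). The HS test was passed by 5 of the targets and 1 enzyme, against 1.87% of all genes, and the HS+REC test by 5 targets and no enzyme, against 1.58%. For HS the difference in log2 fold change, siLonp1 minus scramble, was 1.14 for HSPA1L (adjusted p = 0.0236), 0.75 for HSPH1 (adjusted p = 5.85e-04), 0.65 for HSPA4L (adjusted p = 0.00953), 0.49 for AHSA1 (adjusted p = 0.0113) and 0.46 for DNAJA1 (adjusted p = 0.0179). It was -0.54 for DYRK2, a kinase of HSF1 (adjusted p = 0.0155). For HS+REC it was 0.75 for HSPA4L (adjusted p = 0.00374), 0.60 for HSPH1 (adjusted p = 0.00626), 0.49 for AHSA1 (adjusted p = 0.0141), 0.40 for DNAJA1 (adjusted p = 0.0458) and 0.35 for HSPD1 (adjusted p = 0.0468). The 6 targets are an HSP70 of low basal level (HSPA1L, a neighbour of HSPA1A, at 27 to 38 reads in Ctrl), nucleotide exchange factors of the HSP110 class (HSPH1 and HSPA4L), cofactors of HSP90 and HSP70 (AHSA1 and DNAJA1) and the mitochondrial HSP60 (HSPD1). The siLonp1 difference in Ctrl is a part of each interaction value. AHSA1 and HSPA4L were lower with siLonp1 in Ctrl, by 0.23 and 0.26 on the log2 scale. HSPA1L had the lowest Ctrl value of the 24 targets, at -0.26, which did not pass. In the interaction tests HSF1 had -0.19 and -0.16, which did not pass (adjusted p = 0.377 and 0.525). With each of 12 libraries left out in turn, the calls for HSPH1 and HSPA4L in both tests held in all 12 fits. Of 12 fits the call held in 11 for AHSA1 in HS (not without replicate 1 of HS scramble, adjusted p = 0.0513), in 11 for AHSA1 in HS+REC (not without replicate 1 of Ctrl siLonp1, adjusted p = 0.0503), in 9 for DYRK2, in 7 for HSPA1L, in 6 for DNAJA1 in HS and 3 in HS+REC, and in 2 for HSPD1. The HS+REC calls for DNAJA1 and HSPD1 were also lost with a replicate block and with only the groups compared. The libraries whose absence lost these calls were replicate 2 of Ctrl scramble, replicate 2 of HS scramble and replicate 1 of HS siLonp1 for DYRK2, any Ctrl library but replicate 3 of siLonp1 for HSPA1L, and replicate 1 of either Ctrl group, replicate 2 of Ctrl siLonp1, replicates 1 and 2 of HS scramble and replicate 1 of HS siLonp1 for DNAJA1 in HS. In HS+REC they were any Ctrl library, replicate 1 of HS+REC scramble and replicates 1 and 2 of HS+REC siLonp1 for DNAJA1, and the same libraries and replicate 3 of HS+REC scramble for HSPD1. The log2 differences in these fits ran from 0.29 to 0.43 for HSPD1 and 0.34 to 0.48 for DNAJA1 in HS+REC.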

How the results depend on the processing

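Of 885 comparisons of a member's log2 fold change with that under an alternative, 836 kept the direction and the side of the limit, 12 passed where they had not, 9 no longer passed and 28 changed sign, each of the 28 for a change that did not pass. RLE factors, DESeq2 and the likelihood ratio test changed no call for a member. IER5 in the heat and recovery contrasts, HSF2 in HS+REC and HSF1 and HSBP1 under siLonp1 in HS and HS+REC passed under every alternative. Scaling by library size only gave -0.20 for HSF2 in HS with siLonp1, which passed, 0.40 for HSF4 from HS to HS+REC in scramble, which did not, -0.0056 for HSF1 from HS to HS+REC in siLonp1 and -0.091 for HSF2 by siLonp1 in HS, and the median of all genes shifted by at most 0.097. Fits of only the groups compared gave 0.012 for HSF2 in HS in scramble, and, passing, 0.16 for HSBP1 in HS with siLonp1, 0.18 for HSBP1 in HS+REC in scramble and 0.13 for both HSF2 and HSBP1 by siLonp1 in Ctrl, whereas HSF4 from HS to HS+REC in scramble, at 0.45, no longer passed. No filter gave 0.0044 for HSF2 in HS in scramble and 0.22 for IER5 by siLonp1 in HS+REC (adjusted p = 0.0154, which passed). CPM above 1 in all libraries gave 0.021 and, for HSBP1 in HS+REC in scramble, 0.19, which passed. At an adjusted p of 0.01 HSF4 from HS to HS+REC (0.45) did not pass. The cause of these shifts was not tested.

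With each library left out in turn, the log2 fold change in scramble ran from -0.019 to 0.029 for HSF2 and -0.22 to -0.072 for HSBP1 in HS, 0.13 to 0.23 for HSBP1 in HS+REC, and -0.079 to 0.058 for HSF1 and 0.34 to 0.54 for HSF4 from HS to HS+REC. In siLonp1 it ran from -0.23 to 0.13 for HSF4 in HS, -0.092 to 0.018 for HSF1 and -0.010 to 0.35 for HSF4 in HS+REC, and -0.027 to 0.088 for HSF1 from HS to HS+REC. By siLonp1 it ran from -0.28 to -0.19 for HSF1 and -0.11 to 0.26 for HSF4 in Ctrl, -0.036 to 0.045 for HSF2 in HS, and -0.11 to 0.019 for HSF2 and 0.062 to 0.37 for IER5 in HS+REC. The interactions ran from 0.22 to 0.39 for HSBP1 and -0.011 to 0.086 for IER5 in HS, and -0.19 to 0.19 for HSF4 and -0.061 to 0.25 for IER5 in HS+REC.

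No pairing of libraries by replicate number was seen, but with 3 libraries per group this check cannot exclude a shared origin. Over 45 pairs with the same number the correlation of deviations from the group means ran from -0.38 to 0.46, 10 exceeded 0.1, and 7 of 18 libraries correlated best with their own number. With the replicate block the HS change of IER5 was 2.35 in scramble, the siLonp1 change of HSF1 in HS was -0.43, and no call for a member changed. Over all genes, counts past the limit moved by over 1.5 times only in the interactions, from 240 (HS) and 203 (HS+REC) to 497 and 385 with no filter, 469 and 361 with the likelihood ratio test, 440 and 317 with DESeq2, 80 and 57 at an adjusted p of 0.01, 735 for HS with only the groups compared, and 98 to 526 and 96 to 304 with a library left out, where 526 was without replicate 3 of HS scramble.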
